A study of Mus musculus with 12 samples.

Results

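The 9 laminin genes described here were measured in the main olfactory epithelium (MOE) of mice with 1 nostril closed. One of them, Lama3, was 2.24-fold higher on the closed side on average, while the other 8 passed the test in no comparison. Of all probe sets, between 0% and 2.9% passed, depending on the comparison, and a count of 0 in 8 genes lies near these shares. The genes are Lama1, Lama2, Lama3, Lama4, Lama5, Lamb1, Lamb2, Lamb3 and Lamc1. They are 9 of the 19938 genes that had a probe set with a single gene symbol, each had exactly 1 such probe set, and all 9 lay above the filter on low values, a mean log2 level of 5 over all arrays. The list was chosen by gene family around Lama3, which was selected on its measured difference between the sides, so that difference is described below without a test. Lamc3, a laminin gene outside the list, is mentioned beside Lamc1.

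RNA of the closed-side or open-side MOE was measured on Affymetrix arrays of the Mouse Gene 1.0 ST type in 4 groups of 3 arrays each, 12 in all. The groups are the closed and the open side of H2be-KO mice and the closed and the open side of WT mice. In H2be-KO mice the coding sequence of H2be, a histone H2B variant of olfactory sensory neurons (OSNs), is replaced by a sequence for a membrane-bound mCherry, GAP43-mCherry, and founders of the line were crossed to C57Bl/6 mice. WT mice carry no such allele, and the labels give no further detail of their strain. All groups underwent unilateral naris occlusion (UNO): the right nostril was cauterised at day 14, and closure lasted 3 weeks. The sample titles put the mice at 5 weeks, although an age tag of 6 months stands on the same samples. The open side is therefore the opposite side of operated mice and not the tissue of an untouched animal. Each sample pools 2 mice, 1 female and 1 male, by the series description, while the legends of the study give a larger number of animals per sample. The study calls the 3 samples of a group biological replicates. Nothing in the sources says whether a closed and an open sample with the same number come from the same mice, and the p-values measure the spread between these samples.

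Laminins are proteins of the basement membrane, the sheet of extracellular matrix on which epithelia, vessels, muscle and nerve sheaths rest. Each laminin is a trimer of 1 alpha, 1 beta and 1 gamma chain joined by a coiled coil. The beta and gamma chains and most alpha chains carry short arms that link laminins into a network, and the alpha chain ends in globular domains that bind receptors on cells, mainly integrins and dystroglycan. The alpha chain largely sets where a trimer is used. The Lama3 chain joins that of Lamb3 in the laminin that fastens basal cells of skin and other lining epithelia through hemidesmosomes, and loss of either gene causes severe skin blistering. In the MOE, the basement membrane separates the epithelium from the lamina propria, and horizontal basal cells, which are reserve stem cells, sit directly on it.

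Values are log2 levels, so a difference of 1 is a doubling, and levels of different probe sets are not set against each other. Array medians lay between 7.21 and 7.3, and Omp, the marker protein of mature OSNs, lay between 12.53 and 12.71 in all arrays. The targeted gene H2be is annotated as H2bc21. It measured 11.46, 11.41 and 11.44 in H2be-KO closed sides, 11.31, 11.33 and 11.32 in H2be-KO open sides, 11.68, 11.71 and 11.75 in WT closed sides and 11.62, 11.55 and 11.58 in WT open sides. All H2be-KO arrays lay below all WT arrays of the same side. Of all probe sets, 8.82% on the closed side and 12.4% on the open side had genotype groups without overlap, in 1 direction or the other. The difference of -0.27 on the closed side (adjusted p = 0.999, limma) and of -0.26 on the open side (adjusted p = 0.641) did not pass the test. The sources do not say which part of the H2be transcript the probes read, and a probe outside the replaced coding sequence would not show its loss. The cause of the signal that remained in H2be-KO arrays was not tested.

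Lama3, which was selected on this difference, separated the sides completely in both genotypes. Sides without overlap, in either direction, were seen in 17.3% of all probe sets in H2be-KO mice and in 13.2% in WT mice. The Lama3 log2 level was 8.99, 8.63 and 8.76 in H2be-KO closed sides, against 7.68, 7.46 and 7.57 in H2be-KO open sides (probe set 10453939). In WT mice it was 8.60, 8.62 and 8.74 on closed sides, against 7.47, 7.45 and 7.70 on open sides. The lowest of the 6 closed arrays, at 8.60, lay well above the highest of the 6 open arrays, at 7.70. No share of all probe sets was taken for this separation over both genotypes. The group means were 8.79 ± 0.18 in H2be-KO closed sides and 7.57 ± 0.11 in H2be-KO open sides, and 8.66 ± 0.08 in WT closed sides and 7.54 ± 0.14 in WT open sides (SD, n = 3 each).

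**Figure D1:**
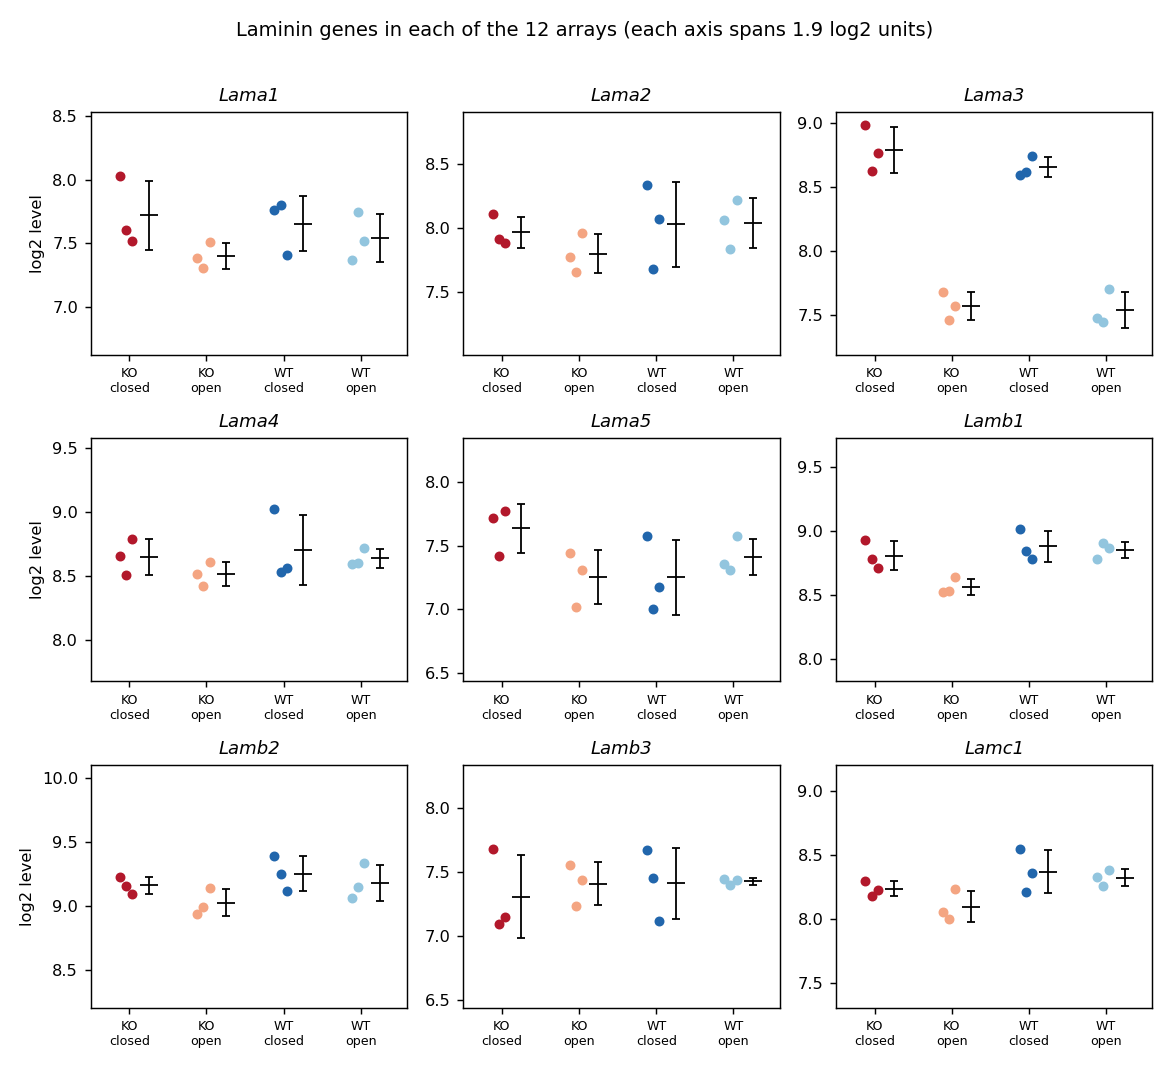
Log2 level of each laminin gene (vertical axis, spanning 1.9 log2 units in every panel) in each of the 12 arrays, by group, with points for arrays and a black bar for the mean ± SD of 3 arrays. In the Lama3 panel all 6 closed sides, at 8.60 and above, stand over all 6 open sides, at 7.70 and below, while closed and open arrays of the other genes lie close together or overlap.

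As a difference, Lama3 was higher on the closed side by 1.22 log2 units in H2be-KO mice, a 2.33-fold difference, and by 1.11 in WT mice, a 2.16-fold difference (SE 0.11 each). Averaged over genotypes it was 1.17, or 2.24-fold. Among the 32615 probe sets tested, ordered by rise on the closed side, Lama3 stood at rank 28 in H2be-KO mice and at rank 17 in WT mice. The levels were ordered H2be-KO closed, WT closed, H2be-KO open, WT open, and neighbours of the same side in that order did not pass the test of their difference. In tissue samples, a difference in the number of cells of a type and a difference in RNA per cell cannot be told apart. Lama3 produces a long and a short chain from different promoters, and the sources do not say which of them the probe set reads.

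The genotype comparisons were not used to single out Lama3 and were tested. Lama3 was 0.14 higher in H2be-KO than in WT on the closed side (SE 0.11, 95% interval -0.11 to 0.39, adjusted p = 0.999) and 0.03 higher on the open side (SE 0.11, interval -0.22 to 0.28, adjusted p = 0.982), and the open-side value turned below 0 when single arrays were left out. Arrays of the genotypes interleaved on both sides. The difference between the genotypes in the closed-minus-open change was 0.11 (SE 0.16, interval -0.24 to 0.46, adjusted p = 1). With 3 arrays per group, a difference between the genotypes of up to about 0.46 log2 units thus lay within the interval.

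Of the other laminin genes, none passed the test between the sides. In H2be-KO mice 0 of the 8 remaining laminin genes passed the test between the sides, where 1.05% of all probe sets did, and 2 had an unadjusted p under 0.05, as did 3433 of the 32615 probe sets. In WT mice 0 of 8 passed, where 0.855% of all probe sets did, and 0 had an unadjusted p under 0.05, against 3045 probe sets. Averaged over both genotypes 0 of 8 passed, where 2.9% of all probe sets did, and again 0 had an unadjusted p under 0.05, against 4300 probe sets. The median difference of the 8 genes was 0.15 in H2be-KO mice, against 0.02 over all probe sets, and 0.04 in WT mice, against -0.01 over all probe sets.

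Lama1 encodes the alpha chain typical of embryonic basement membranes. It measured 8.03, 7.61 and 7.52 in H2be-KO closed sides, against 7.38, 7.31 and 7.51 in H2be-KO open sides (probe set 10446473). These groups touched without overlapping, by a margin of 0.01, and replicate 1 of the closed side stood alone at the top. In WT mice Lama1 was 7.76, 7.80 and 7.41 on closed sides, against 7.37, 7.74 and 7.52 on open sides, and the groups overlapped. The differences were 0.32 in H2be-KO mice (SE 0.16, interval -0.02 to 0.66, adjusted p = 0.519) and 0.11 in WT mice (SE 0.16, interval -0.23 to 0.45, adjusted p = 0.928). Leaving out 1 array at a time gave 0.16 to 0.42 in H2be-KO mice, the lowest without that closed replicate 1, and 0.02 to 0.24 in WT mice.

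Lama5 encodes the alpha chain found most widely under adult epithelia. In H2be-KO mice its level was 7.72, 7.41 and 7.77 on closed sides, against 7.44, 7.02 and 7.31 on open sides (probe set 10490384). In WT mice it was 7.58, 7.004 and 7.18 on closed sides, against 7.35, 7.31 and 7.57 on open sides. Closed and open arrays overlapped in both genotypes, and the average stood higher on the closed side in H2be-KO mice and lower in WT mice. The differences were 0.38 in H2be-KO mice (SE 0.16, unadjusted p = 0.0395 and adjusted p = 0.434 by limma) and -0.16 in WT mice (SE 0.16, adjusted p = 0.883). The test of the difference between these changes gave 0.54 (SE 0.23, interval 0.03 to 1.04, unadjusted p = 0.0386 and adjusted p = 1 by limma), the largest such value among the laminin genes.

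Lama2 encodes the alpha chain of muscle and peripheral nerve sheaths, whose loss causes a congenital muscular dystrophy. It measured 8.11, 7.91 and 7.89 in H2be-KO closed sides and 7.78, 7.66 and 7.97 in H2be-KO open sides, and 8.34, 7.68 and 8.07 in WT closed sides and 8.07, 7.84 and 8.22 in WT open sides (probe set 10368409). The WT closed arrays spanned the whole range of the WT open ones. Its difference between sides was 0.17 in H2be-KO mice (adjusted p = 0.816), and in WT mice -0.01 (adjusted p = 0.993), a value whose sign turned when arrays were centred on their medians. Lama4, an alpha chain of blood vessel walls that lacks the short arm, measured 8.65, 8.51 and 8.79 in H2be-KO closed sides and 8.52, 8.42 and 8.61 in H2be-KO open sides (probe set 10362538). In WT mice Lama4 was 9.02, 8.53 and 8.57 on closed sides and 8.60, 8.60 and 8.72 on open sides, and a single closed array stood above all others. Its differences were 0.13 in H2be-KO mice (adjusted p = 0.819) and 0.07 in WT mice (adjusted p = 0.949).

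**Figure D2:**
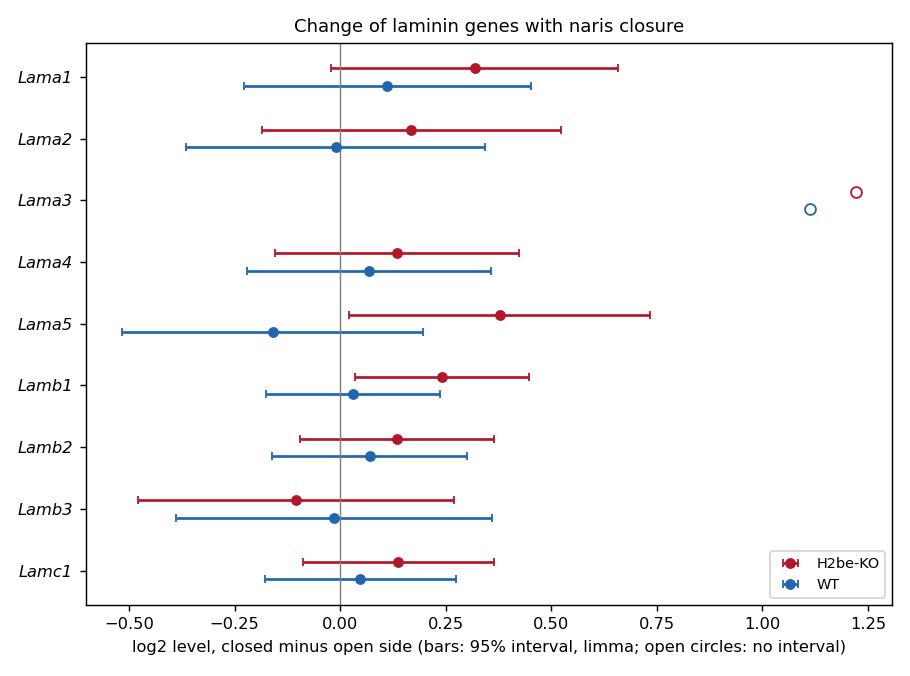
Closed minus open side difference in log2 level (horizontal axis) of each laminin gene in H2be-KO (red, upper of each pair) and WT mice (blue), with 95% intervals from limma for the 8 genes tested and open circles without an interval for Lama3, which was singled out by this difference. Lama3 stands at 1.22 and 1.11, and the other genes lie between -0.16 and 0.38.

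Among the beta chains, Lamb3 is the partner of Lama3 in the hemidesmosomal laminin and did not pass the test between the sides. Its level was 7.68, 7.09 and 7.15 in H2be-KO closed sides, against 7.56, 7.23 and 7.44 in H2be-KO open sides (probe set 10352838). In WT mice it was 7.67, 7.45 and 7.12 on closed sides, against 7.45, 7.40 and 7.44 on open sides. The closed arrays were widely spread in both genotypes, and the open arrays lay among them. The differences were -0.10 in H2be-KO mice (SE 0.17, interval -0.48 to 0.27, adjusted p = 0.912) and -0.01 in WT mice (SE 0.17, interval -0.39 to 0.36, adjusted p = 0.992), and the sign of the WT value turned under quantile normalization and under median centring.

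Lamb1 is the beta chain of most embryonic and many adult laminins. It measured 8.93, 8.78 and 8.71 in H2be-KO closed sides, against 8.52, 8.53 and 8.63 in H2be-KO open sides, and the groups did not overlap (probe set 10395163). In WT mice it was 9.01, 8.84 and 8.78 on closed sides, against 8.78, 8.90 and 8.87 on open sides, and the groups overlapped. The difference of 0.24 in H2be-KO mice had the lowest p of the 8 genes (SE 0.09, unadjusted p = 0.0259 and adjusted p = 0.376 by limma), and the WT difference was 0.03 (SE 0.09, adjusted p = 0.971). Lama1 and Lamb1 were thus the 2 of 8 genes whose H2be-KO sides did not overlap, where 17.3% of all probe sets were so, and 0 of 8 were so in WT mice, where 13.2% of all probe sets were. Lamb2, the beta chain of neuromuscular synapses and the kidney filter, measured 9.23, 9.16 and 9.10 in H2be-KO closed sides and 8.94, 8.995 and 9.15 in H2be-KO open sides (probe set 10588942). In WT mice Lamb2 was 9.39, 9.25 and 9.12 on closed sides and 9.06, 9.15 and 9.34 on open sides. Both pairs overlapped, with differences of 0.13 in H2be-KO mice (adjusted p = 0.751) and 0.07 in WT mice (adjusted p = 0.937).

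Lamc1, the gamma chain shared by most laminin trimers, measured 8.29, 8.18 and 8.23 in H2be-KO closed sides and 8.06, 7.999 and 8.23 in H2be-KO open sides (probe set 10358816). In WT mice it was 8.54, 8.21 and 8.36 on closed sides and 8.33, 8.25 and 8.38 on open sides. The groups overlapped in both genotypes. The differences were 0.14 in H2be-KO mice (SE 0.10, adjusted p = 0.738) and 0.05 in WT mice (SE 0.10, adjusted p = 0.956). Lamc3, another gamma chain, gave -0.18 in H2be-KO mice (SE 0.18, adjusted p = 0.822) and 0.04 in WT mice (SE 0.18, adjusted p = 0.984).

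Between the genotypes, 0 of 9 laminin genes passed the test on the closed side, where 0.0245% of all probe sets did, and 1 had an unadjusted p under 0.05, as did 1391 of the 32615 probe sets. On the open side 0 of 9 passed, where 0.0215% of all probe sets did, and 1 had an unadjusted p under 0.05, as did 2175 probe sets. The difference between the genotypes in the change with closure passed for 0 of 9, and for 0% of all probe sets, while 1309 probe sets, Lama5 among them, had an unadjusted p under 0.05. The side comparisons and the genotype comparisons share arrays, so a low group enters both.

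On the open side all 8 genes other than Lama3 averaged lower in H2be-KO than in WT, with a median difference of -0.16, against a median of -0.04 over all probe sets, of which 60.3% were negative. Lamb1 had the largest difference, at 8.56 ± 0.06 in H2be-KO open sides and 8.85 ± 0.06 in WT open sides (SD, n = 3 each), or -0.28 (SE 0.09, unadjusted p = 0.0113 and adjusted p = 0.688 by limma). Lama2 followed, at 7.80 ± 0.15 in H2be-KO open sides and 8.04 ± 0.19 in WT open sides (SD, n = 3 each), or -0.24 (SE 0.16, adjusted p = 0.857), and its groups overlapped. Lamc1 was next, at 8.10 ± 0.12 in H2be-KO open sides and 8.32 ± 0.07 in WT open sides (SD, n = 3 each), or -0.23 (SE 0.10, adjusted p = 0.747). In Lamb1 and Lamc1 all H2be-KO arrays lay below all WT arrays, as 12.4% of all probe sets did in 1 direction or the other. Lamb3 was closest to 0, at -0.02 (SE 0.17, adjusted p = 0.993), and its sign turned with array weights, quantile normalization and median centring. Without replicate 2 of the H2be-KO open sides, 7 of the 8 differences were negative and their median was -0.12.

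On the closed side the genotypes were less one-sided, with 6 of the 8 genes other than Lama3 negative and a median of -0.07, against -0.002 over all probe sets. The 2 positive values belonged to Lama1, at 0.06, whose sign turned with array weights, and to Lama5. Lama5 measured 7.63 ± 0.19 in H2be-KO closed sides and 7.25 ± 0.29 in WT closed sides (SD, n = 3 each), a difference of 0.38 (SE 0.16, interval 0.02 to 0.74, unadjusted p = 0.0384 and adjusted p = 0.999 by limma). Without replicate 1 of the WT closed sides, 5 of the 8 differences were positive and 3 negative, with a median of 0.06, and that of Lama5 was 0.54. No laminin gene had genotype groups without overlap on the closed side, where 8.82% of all probe sets had.

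**Figure D3:**
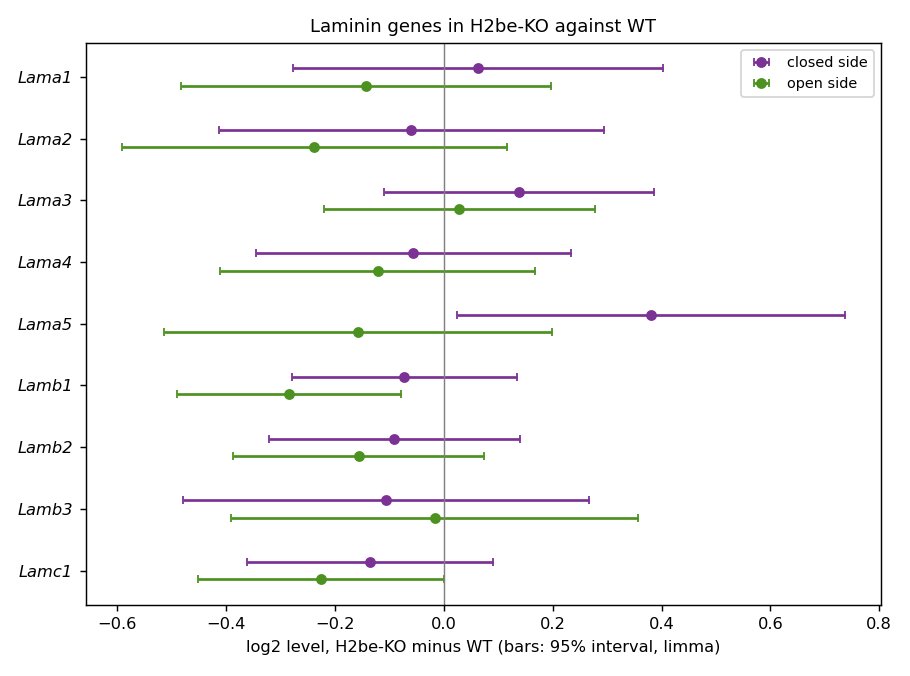
H2be-KO minus WT difference in log2 level (horizontal axis) of each laminin gene on the closed side (purple, upper of each pair) and the open side (green), with 95% intervals from limma. On the open side 8 of 9 points lie below 0, down to -0.28 for Lamb1, and on the closed side Lama5 stands highest at 0.38.

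Some single arrays were the highest or lowest for several of the laminin genes other than Lama3, and such counts were not taken over all probe sets. Replicate 1 of the WT closed sides was the highest of the 12 arrays for 5 of the 8, Lama2, Lama4, Lamb1, Lamb2 and Lamc1, and replicate 2 of the H2be-KO open sides was the lowest for 4. After each gene was centred on its mean over the arrays, the 8 genes averaged 0.27 in that WT closed array and -0.25 in that H2be-KO open array. They averaged 0.19 in replicate 1 of the H2be-KO closed sides, the highest array for 2 of the 8, Lama1 and Lamb3. In the same WT closed array, 4 of 13 lists of cell type markers had their highest mean, those of horizontal basal cells, endothelium, fibroblasts and ciliated respiratory cells. In the same H2be-KO open array, 5 of the 13 had their lowest, those of endothelium, fibroblasts, ciliated respiratory cells, immune cells and bone and cartilage. Their part in the laminin values was not tested. Without the WT closed array, the closed-minus-open differences of the 8 genes in WT mice ran between -0.32 and 0.06 with a median of -0.06, Lama3 stood at 1.14, and 0 of 8 were called.

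The genes of proteins around laminin were read from lists. Of 9 laminin receptors, 6 hemidesmosome genes and 17 basement membrane partners, 0 passed between the sides in H2be-KO mice, in WT mice or on average. Of all probe sets, 1.05%, 0.855% and 2.9% passed in these comparisons, and a count of 0 in lists this short lies near these shares. The median difference was 0.04 in H2be-KO and -0.13 in WT mice for the receptors, 0.04 in H2be-KO and -0.03 in WT mice for the hemidesmosome genes, and 0.05 in H2be-KO and 0.05 in WT mice for the partners. Itgb4, the integrin chain that binds the Lama3 laminin in hemidesmosomes, gave 0.04 in H2be-KO and -0.21 in WT mice (adjusted p = 0.968 and adjusted p = 0.818). Dst, a linker between hemidesmosomes and keratin filaments, gave 0.23 in H2be-KO and 0.03 in WT mice (adjusted p = 0.319 and adjusted p = 0.971).

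Agrn stood nearest to the threshold among these genes. It encodes agrin, a proteoglycan that binds laminin and organises neuromuscular synapses. Its level was 9.30, 9.15 and 9.23 in H2be-KO closed sides and 9.35, 9.24 and 9.43 in H2be-KO open sides, and 9.06, 8.99 and 9.08 in WT closed sides and 9.41, 9.31 and 9.38 in WT open sides. The H2be-KO sides overlapped and the WT sides did not, where 13.2% of all probe sets did not overlap between WT sides. The differences were -0.11 in H2be-KO (SE 0.08, adjusted p = 0.731) and -0.32 in WT mice (SE 0.08, adjusted p = 0.134), and the average of -0.22 had an adjusted p of 0.0854. With trend and robust fitting Agrn passed in WT mice and on average. Col15a1, a collagen that bridges basement membranes and the fibres beneath them, averaged 0.18 (adjusted p = 0.319), and the collagen and laminin receptor chains Itga1 and Itga2 averaged 0.21 and 0.19 (adjusted p = 0.39 and adjusted p = 0.474).

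**Figure D4:**
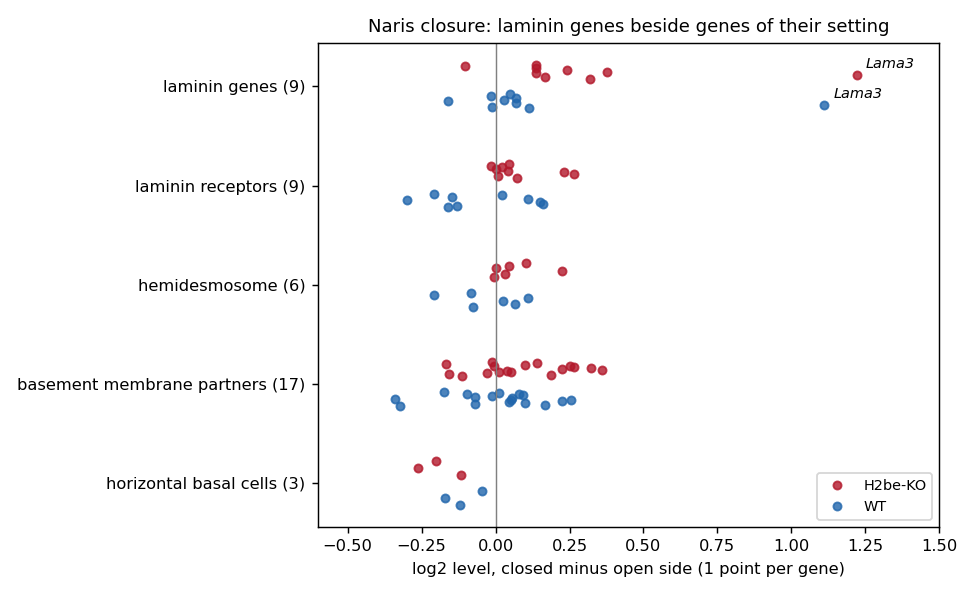
Closed minus open side difference in log2 level (horizontal axis) of single genes, 1 point each, for the 9 laminin genes and for lists of related genes and of horizontal basal cell markers, in H2be-KO (red, upper row) and WT mice (blue, lower row), with the number of genes in parentheses. The Lama3 points at 1.22 and 1.11 stand apart from all other points, which lie between -0.34 and 0.38.

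Markers of the cells in the tissue gave the following. The horizontal basal cell markers Krt5, Krt14 and Trp63, which mark cells that rest on the basement membrane, had a mean log2 level of 8.18 to 8.30 in H2be-KO closed sides against 8.28 to 8.59 in H2be-KO open sides, and of 8.10 to 8.68 in WT closed sides against 8.29 to 8.503 in WT open sides. Closed and open sides overlapped in both genotypes, 0 of 3 markers passed the test, and all 3 averaged lower on the closed side, with differences of -0.26 to -0.12 in H2be-KO mice and -0.17 to -0.05 in WT mice, opposite in sign to Lama3. The mean of 6 mature OSN markers was 11.60 to 11.64 in H2be-KO closed sides against 11.30 to 11.39 in H2be-KO open sides, and 11.53 to 11.62 in WT closed sides against 11.30 to 11.35 in WT open sides, so that it stood above without overlap in both genotypes, as Lama3 did. The mean of 5 immature OSN markers was 10.001 to 10.12 in H2be-KO closed sides against 10.30 to 10.39 in H2be-KO open sides, and 9.98 to 10.08 in WT closed sides against 10.35 to 10.41 in WT open sides, and it stood below without overlap. Of single probe sets, 17.3% did not overlap between H2be-KO sides and 13.2% between WT sides. The mean of 3 markers of globose basal cells and progenitors was 8.07 to 8.16 in H2be-KO closed sides against 8.22 to 8.31 in H2be-KO open sides, and 8.13 to 8.14 in WT closed sides against 8.24 to 8.34 in WT open sides. On average over genotypes, 5 of 6 mature OSN markers rose on the closed side (Cnga2, Cnga4, Gnal, Adcy3 and Rtp1, by 0.26 to 0.40), while Omp gave 0.03 (adjusted p = 0.91). Of the immature OSN markers 4 of 5 fell (Gap43, Gng8, Nhlh1 and Stmn1), with Ncam1 at -0.18 (adjusted p = 0.131), and of the globose basal cell markers 1 of 3 fell, Neurod1 at -0.27 (adjusted p = 0.0429). Of all probe sets, 2.9% were called on average. Within each genotype 1 of 6 mature markers was called. Of the immature markers 1 of 5 was called in WT and 0 in H2be-KO mice. Over alternatives the mature count ran from 0 to 4 in WT and 0 to 5 in H2be-KO mice. The immature count ran from 0 to 4 in WT and 0 to 3 in H2be-KO mice. On average, the replicate number as a block gave 2 mature and 2 immature markers, and trend and robust fitting 5 of each. The average counts also changed when 1 array was left out. The mature count was 2 to 5, with 2 or 3 without any one H2be-KO closed replicate, without replicate 1 of the H2be-KO open sides, replicate 3 of the WT closed sides or replicate 1 or 3 of the WT open sides. The immature count was 1 to 3, with 3 only without replicate 1 of the H2be-KO closed or replicate 3 of the WT closed sides, and leaving out any array other than replicate 3 of the H2be-KO open sides ended the Neurod1 call. The part of these cell types in the Lama3 difference was not tested.

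Of the remaining 9 marker lists, bone and cartilage stood above without overlap in H2be-KO closed sides, at 9.09 to 9.22, against 8.87 to 8.97 in H2be-KO open sides. Sustentacular cell markers stood below in H2be-KO closed sides, at 11.68 to 11.75, against 11.80 to 11.84 in H2be-KO open sides. Both lists overlapped between the sides in WT mice, and markers of endothelium, smooth muscle and pericytes, fibroblasts, skeletal muscle, ensheathing glia and Schwann cells, ciliated respiratory cells and immune cells overlapped in both genotypes. Of single probe sets, 17.3% did not overlap between H2be-KO sides, and no such share was taken for means of lists. No marker that was measured lay below the filter.

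The genes whose levels ran most like Lama3 over the 12 arrays were found among 19389 named genes above the filter, by Pearson's r, as a description. They were Slc35b4, a nucleotide sugar transporter (r = 0.988), Sh3glb2, an endophilin (0.986), Slco3a1, an organic anion transporter (0.986), Pde4d, a phosphodiesterase that degrades cAMP (0.986), Lrwd1, a partner of the origin recognition complex (0.984), and Fn3k, a kinase of glycated proteins (0.983). The 12 arrays of any such pair share the 4 group means, and once these were subtracted the same r lay between 0.562 and 0.655. All of the 6 were higher on the closed side, Pde4d by 0.75 in H2be-KO and 0.69 in WT mice, Slco3a1 by 0.80 in H2be-KO and 0.64 in WT mice and Slc35b4 by 0.61 in H2be-KO and 0.49 in WT mice, each less than Lama3.

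The lowest r belonged to the odorant receptor gene Olfr1461 (-0.981), to Slc8a1, a sodium and calcium exchanger (-0.973), and to Trim45, of the tripartite motif family (-0.971). Slc8a1 was lower on the closed side, with differences of -1.15 in H2be-KO and -1.23 in WT mice. After the group means were subtracted, r was 0.02 for Slc8a1 and 0.10 for Trim45, and -0.79 for Olfr1461. Among the laminin genes, r with Lama3 ran from 0.55 for Lama1 to -0.09 for Lamb3. After the group means were subtracted, it ran from 0.505 for Lama5 to 0.147 for Lama4, and was 0.447 for Lamb3 and 0.228 for Lama1.

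**Figure D5:**
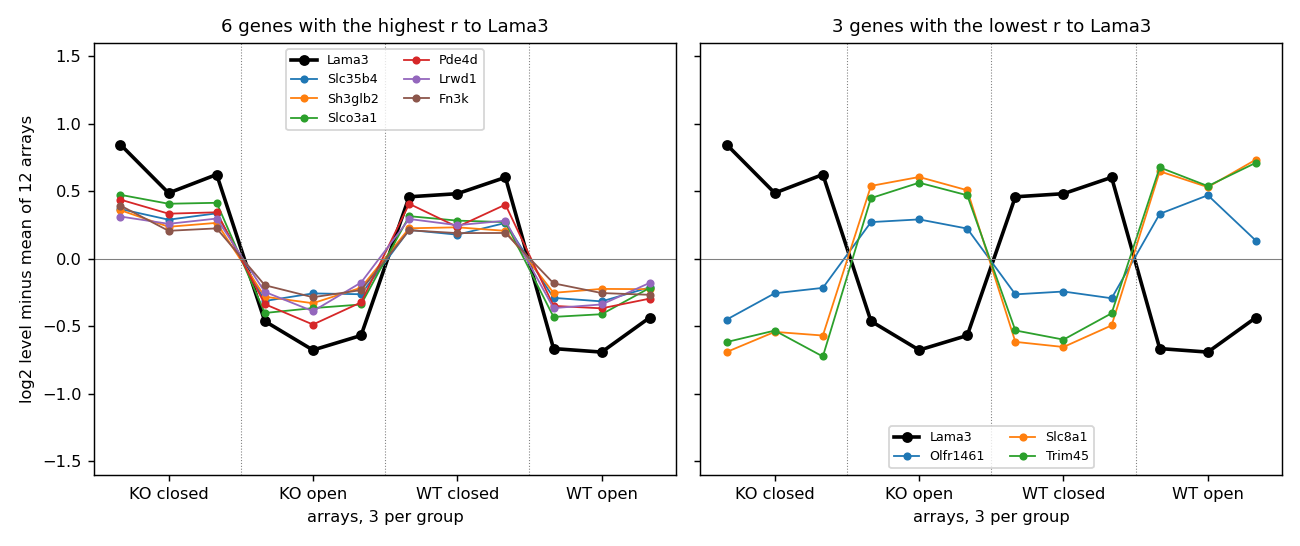
Log2 level minus the gene's mean over the 12 arrays (vertical axis) in each array (horizontal axis, 3 per group), for Lama3 in black with the 6 genes of highest r on the left and the 3 of lowest r on the right. Lines join the points of a gene and carry no order among replicates. Lama3 and the 6 genes stand above their means in all closed arrays and below in all open ones, and the 3 genes on the right do the opposite.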

How the data were processed

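RNA of 12 MOE samples was labelled and hybridised by the authors to Affymetrix arrays of the Mouse Gene 1.0 ST type, normalized by the sketch-quantile method and summarised to probe sets with IterPLIER in Affymetrix Expression Console. The deposited file holds a log2 level for each of 35556 probe sets, with 0 missing values, and no 2 arrays were identical. The genome build behind the probe sets is not given in the sources used here. Gene symbols came from the platform annotation, where 21789 probe sets had 1 symbol, 1621 had several and 12146 had none, and the probe set of highest mean stood for a gene.

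The 2941 probe sets with a mean log2 level of 5 or less were removed, and limma 3.58.1 in R 4.3.3 (with data.table, version 1.17.8) fitted 1 mean per group to the remaining 32615 over all 12 arrays. Closed was compared with open sides in each genotype and on average, H2be-KO with WT within each side, and the change between sides across genotypes. Tests were two-sided with Benjamini-Hochberg adjustment over all probe sets, a threshold of 0.05 and 11.5 degrees of freedom. The number of arrays limits the precision, and the median standard error of a difference was 0.13. The script was tested on simulated data.

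The genes, the 3 lists of related genes and the 13 lists of cell type markers were chosen with earlier results of these data known. Named genes were the 9 laminin genes, Lamc3, H2be, from each list of related genes those called or, with none called, the 2 of smallest unadjusted p on average, and the 6 genes most and 3 least correlated with Lama3. Some items of these lists are not reported here. Alternatives changed the filter, the fit, the arrays in it, the normalization, the probe set per gene and the pairing by replicate number, and left out each array in turn. Plots came from matplotlib 3.10.9 under Python 3.11.15.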

Additional observations from a re-analysis of the deposited data

How the results depend on the processing

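Over 21 alternatives the count of laminin genes called stayed at 0 in every genotype comparison and, leaving Lama3 aside, in every side comparison, and Lama3 differed between closed and open sides by 1.12 to 1.30 in H2be-KO and by 1.06 to 1.19 in WT mice, leaving out each array in turn included. The fit of only the 6 arrays compared gave no average and no difference between genotypes. Of 43 single-gene results, 15 turned sign under some alternative, all with a main value of 0.11 or less in size, and 0 were called. Median centring gave 0.006 for Lama2 between WT sides. Lamb3 gave 0.006 between WT sides with quantile normalization and 0.002 with median centring, and for H2be-KO minus WT on the open side 0.016 with array weights, 0.026 with quantile normalization and 0.034 with median centring. Lama1 gave -0.026 for H2be-KO minus WT on the closed side with array weights. The cause was not tested. Leaving out 1 array at a time, H2be-KO sides gave -0.291 to 0.003 for Lamb3. WT sides gave -0.165 to 0.163 for Lama2, -0.089 to 0.155 for Lama4, -0.038 to 0.08 for Lamb1, -0.143 to 0.134 for Lamb3 and -0.039 to 0.128 for Lamc1. H2be-KO minus WT gave -0.093 to 0.162 for Lama1, -0.234 to 0.095 for Lama2, -0.143 to 0.102 for Lama4 and -0.293 to 0.022 for Lamb3 on the closed side, and -0.025 to 0.109 for Lama3 and -0.091 to 0.072 for Lamb3 on the open side. The difference between genotypes gave -0.02 to 0.224 for Lama4, -0.013 to 0.134 for Lamb2 and -0.276 to 0.039 for Lamb3. Agrn was called on average with the filter at 7, with trend and robust fitting and with quantile normalization, and in WT mice with trend and robust fitting, which made 1 of 17 basement membrane partners each time. With the replicate number as a block, 0 laminin genes were called between genotypes and 0 of the 8 other than Lama3 between sides, and the probe sets called were 116 in H2be-KO, 97 in WT mice and 647 on average, against 341, 279 and 945 without it. Same-numbered samples correlated at -0.009 to 0.233 in their deviations. The highest r with another number was -0.064 to 0.146. Some samples correlated best with their own number and others did not. With 3 arrays per group these values cannot decide whether same-numbered samples share mice or a batch. The filter at 7 called 487 probe sets in WT mice, trend and robust fitting 588 in H2be-KO and 523 in WT mice, array weights 544 in H2be-KO mice, and the fit of 6 arrays 116 in H2be-KO and 36 in WT mice. Leaving out 1 array at a time gave 128 to 310 in H2be-KO, 93 to 223 in WT mice and 590 to 819 on average. Between genotypes, 8 probe sets on the closed and 7 on the open side became 3 and 4 in the fit of 6 arrays and 3 and 0 with the block, and trend and robust fitting gave 12 on the open side.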

Other observations

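The genes next to Lama3 in the order of the reference annotation were looked up after the values had been seen. None of the 4 nearest, 2 on each side, passed the test between the sides in either genotype. Npc1, a cholesterol transporter of lysosomes, gave 0.19 in H2be-KO and 0.11 in WT mice (adjusted p = 0.466 and adjusted p = 0.806, limma). Ankrd29 gave 0.06 in H2be-KO and -0.39 in WT mice (adjusted p = 0.93 and adjusted p = 0.238), and its WT closed arrays, at 5.88, 5.39 and 5.80, lay below its WT open arrays, at 6.12, 6.11 and 6.01. Ttc39c gave -0.14 in H2be-KO and -0.15 in WT mice, and Cabyr, a calcium-binding protein of sperm tails, gave -0.04 in H2be-KO and -0.20 in WT mice. The WT closed arrays of Cabyr also lay below its WT open arrays, and the H2be-KO closed arrays of Npc1 lay above its H2be-KO open arrays. Of all probe sets, 13.2% did not overlap between WT sides and 17.3% between H2be-KO sides.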
